A study of Homo sapiens with 6 samples.

Results

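Reported here are 37 genes of the ATF4 and eIF2 arm of the integrated stress response in DMS-53 cells: transcription factors, feedback genes and other targets, the eIF2 kinases with the alpha subunit of eIF2, enzymes of amino acid synthesis, amino acid transporters and the tRNA exporter XPOT. They were chosen by name, and every probe set whose gene symbol in the platform annotation equals one of the names was taken. A probe set of its own symbol was found for 36 of the 37 genes, with 76 probe sets between them, and all 36 were among the 16868 genes tested. GPT2, which encodes the mitochondrial alanine aminotransferase, had no probe set of its own symbol and was not measured. All 36 passed the filter on low values, and the lowest mean of any of them on the control arrays, 5.86 for SLC6A9 on the log2 scale, also lay above the limit of 5.55.

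DMS-53 is an established human small cell lung cancer line. The cells were kept for 24 h in RPMI medium (control), with desferrioxamine (DFO) added at 250 µM, or with the thiosemicarbazone Dp44mT added at 25 µM. DFO is a hydrophilic siderophore that binds iron and enters cells poorly, and Dp44mT is a membrane-permeable chelator of iron and copper. Each group has 2 Affymetrix U133 Plus 2.0 arrays of total RNA, which the sample titles number set 1 and set 2. Whether a set is a separate culture is not in the labels. The p-values below therefore measure only how far these arrays spread, and that spread may be technical.

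Kinases that each sense a different stress phosphorylate the alpha subunit of eIF2: HRI (EIF2AK1, haem shortage and mitochondrial stress), PKR (EIF2AK2, double-stranded RNA), PERK (EIF2AK3, unfolded protein in the endoplasmic reticulum) and GCN2 (EIF2AK4, uncharged tRNA). Phosphorylated eIF2 slows translation in general while the ATF4 message is translated more, so ATF4 is controlled to a large extent at the level of its protein, which arrays do not measure. ATF4 pairs with C/EBP proteins on C/EBP-ATF response elements and activates genes for amino acid uptake and synthesis, for tRNA charging, for cell death and for the return of translation.

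The core of that element, TGATGNAA, was searched on both strands in the RefSeq promoters of GRCh38.p14, from 250 bases before to 50 bases after each gene's start, together with the cAMP response element TGACGTCA, which ATF and CREB proteins bind. The promoter table held 31 of the 37 genes. TGATGNAA was present in 9 of the 31 (29.03%), against 4.457% of the 27305 genes of the table, and TGACGTCA in 1, PPP1R15A (3.23%), against 2.249%. The genes with TGATGNAA were CEBPG, JDP2, CHAC1, ASNS, SLC7A1, SLC3A2, SLC1A4, SLC1A5 and SLC38A1. It was present in 3 of the 11 matched genes that rose in either chelator (below) and in 6 of the 20 matched genes that were not called. Windows are shown for the 3 that rose, CEBPG, CHAC1 and SLC3A2. Those of ASNS, the textbook amino acid response gene, and of PPP1R15A, for the other element, were added after their values were known. Each runs 5′ to 3′ on the gene's strand, with the matched motif in capitals. A match is a description of the letters and not a shown binding site.
CEBPG, chr19:33374061-33374090, plus strand, match from -42 to -35: gcgcggcgtcTGATGCAAcctgccggcaac
CHAC1, chr15:40953221-40953470, plus strand, match from -209 to -202 in the reverse sense: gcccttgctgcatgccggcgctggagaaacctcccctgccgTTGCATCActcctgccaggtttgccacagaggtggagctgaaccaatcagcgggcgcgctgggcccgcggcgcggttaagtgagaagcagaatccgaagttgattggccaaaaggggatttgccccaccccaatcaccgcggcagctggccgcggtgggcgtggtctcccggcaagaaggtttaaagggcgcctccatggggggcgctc
SLC3A2, chr11:62881719-62881748, plus strand, match from 38 to 45, past the start of the gene, in the reverse sense: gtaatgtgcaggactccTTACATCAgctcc
ASNS, chr7:97872409-97872528, minus strand, match from -68 to -61: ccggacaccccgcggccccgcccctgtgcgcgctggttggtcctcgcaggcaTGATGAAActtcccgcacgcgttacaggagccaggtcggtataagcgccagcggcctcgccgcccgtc
PPP1R15A, chr19:48872301-48872420, plus strand, TGACGTCA from -58 to -51: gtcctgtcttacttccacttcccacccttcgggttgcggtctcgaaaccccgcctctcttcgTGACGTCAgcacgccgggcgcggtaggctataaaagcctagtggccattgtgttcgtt

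The 2 chelator arrays of set 2 stood apart from the other arrays. Their median deposited intensities were 63.0 (DFO) and 49.9 (Dp44mT), against 83.6 to 88.9 on the other 4, and they held the 2 highest positions on the first principal component. For ACTB, the 3′ over 5′ signal ratio, a measure of RNA quality, was between 1.14 and 1.41 on all 6 arrays. Of the markers of the labelled cell type, all 11 neuroendocrine genes and all 5 epithelial genes with a probe set lay above the filter limit. Of the 11 neuroendocrine markers 9 had lower means than control in DFO and 10 in Dp44mT, with both arrays below control in 6 and 8 and medians of -0.21 and -0.39. Over all genes, 9026 and 8144 of 16868 had lower means, 30% and 33.1% had both arrays below, and the medians were -0.04 and 0.03. Only INSM1, a neuroendocrine transcription factor, passed among the neuroendocrine markers, with a log2 change of -2.21 in DFO and -3.37 in Dp44mT. Of the 8 fibroblast markers of 10 above the limit, COL1A2, COL3A1, DCN and POSTN differed by set, from control by 3.12 to 3.45 (DFO) and 2.84 to 3.81 (Dp44mT) in set 2 and by -0.54 to -0.23 in set 1. COL1A2 read 7.85 and 5.57 on the control arrays of set 1 and set 2, 7.59 and 9.03 in DFO, and 7.54 and 9.28 in Dp44mT, so the control array of set 2 was the lowest and the chelator arrays of set 2 the highest. The other 4, COL1A1, LUM, PDGFRA and THY1, lay between -0.46 and 0.44 from control in set 2. PDGFRB and FAP lay below the limit, and the list's summed intensity ran from 1104 to 1812 in control, 1522 to 2065 in DFO and 1591 to 1908 in Dp44mT. PECAM1, an endothelial marker, differed by set in the same way, at -0.57 (DFO) and -0.15 (Dp44mT) in set 1 and 2.46 and 2.83 in set 2. Other endothelial markers varied. In the same order, VWF was at -0.295 and -0.13, then 0.85 and 1.25, and ERG at -0.45 and 0.19, then 0.33 and 0.64. KDR and TEK were alike in both sets. KDR was at 1.49 and -0.22, then 1.08 and -0.245, and TEK at 0.19 and 0.66, then 0.335 and 0.615. These markers are named after their values were seen. Their part in the results was not tested, so differences within set 1 are given below. For endothelium 5 of 6 markers lay above the limit (not CDH5), with sums of 560 to 996, 998 to 1297 and 892 to 1238, and for leukocytes 4 of 5 (not PTPRC), with sums of 197 to 277, 196 to 201 and 189 to 272. TFRC, the transferrin receptor gene named in the design text as a check of the treatment, was 0.84 higher in DFO (adjusted p = 0.128) and 0.70 higher in Dp44mT (adjusted p = 0.091), which did not pass. In a bulk culture, fewer cells that express a gene and less of its RNA per cell cannot be told apart.

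All 5 feedback genes and other targets, the factor genes CEBPG and DDIT3, the PERK gene EIF2AK3 and the transporter gene SLC3A2 rose under both chelators, while most genes that make or carry amino acids did not pass the test. DFO raised 9 of the 36 and lowered 0. Over all genes tested, 1.04% were called higher and 0.0593% lower. Dp44mT raised 11 of the 36 and lowered 0, against 1.91% higher and 1.46% lower over all genes. The 9 genes raised by DFO were CEBPG, DDIT3, TRIB3, PPP1R15A, CHAC1, STC2, VLDLR, EIF2AK3 and SLC3A2, and the 11 raised by Dp44mT were these and CEBPB and SLC7A5. A gene is called here at a Benjamini-Hochberg adjusted p under 0.05 in limma's moderated test over all genes, and both comparisons use the same 2 control arrays. Changes are log2 differences of group means of quantile-normalized log2(intensity + 16), which understate the change of dim probe sets.

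Without the 2 chelator arrays of set 2, limma called 11 of the 36 in Dp44mT, which were 10 of the 11 above and SLC1A4 in place of CEBPB. The same fit called 0 of the 36 in DFO, as it did over all genes, where 3185 genes and 19 of the 36 had an unadjusted p under 0.05. The calls also depended on the scaling of the arrays. On the deposited scale with no scaling 0 of the 36 passed in DFO (9 at an unadjusted p under 0.05; 26 of all genes passed) and 2, DDIT3 and PPP1R15A, in Dp44mT. With array medians subtracted, 4 passed in DFO (DDIT3, PPP1R15A, STC2 and VLDLR) and 7 in Dp44mT (these and CEBPG, TRIB3 and SLC3A2). Over all genes, 175 were called higher and 10 lower in DFO, which became 18 and 8 on the deposited scale, and 323 higher and 246 lower in Dp44mT, which became 25 and 41 on the deposited scale and 117 and 186 with medians subtracted. Leaving out any 1 array of the groups compared left 0 called by limma in either comparison, with 11 to 14 of the 36 at an unadjusted p under 0.05 in DFO and 15 to 20 in Dp44mT. Each called gene kept its direction under every alternative run. Statements below that arrays overlap or stand apart are on the normalized scale. On the deposited intensities, a count made after the normalized levels were seen, both chelator arrays lay above both control arrays for 9 of the 9 genes called in DFO and 11 of the 11 called in Dp44mT. They did so for 0 of the 27 genes not called in DFO and 0 of the 25 not called in Dp44mT, and the arrays of the chelators overlapped each other for all 36. The called genes were picked by the separation of these same arrays, so these counts are no separate evidence for the calls. The share over all genes on the deposited intensities was not counted, here or below.

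**Figure D1:**
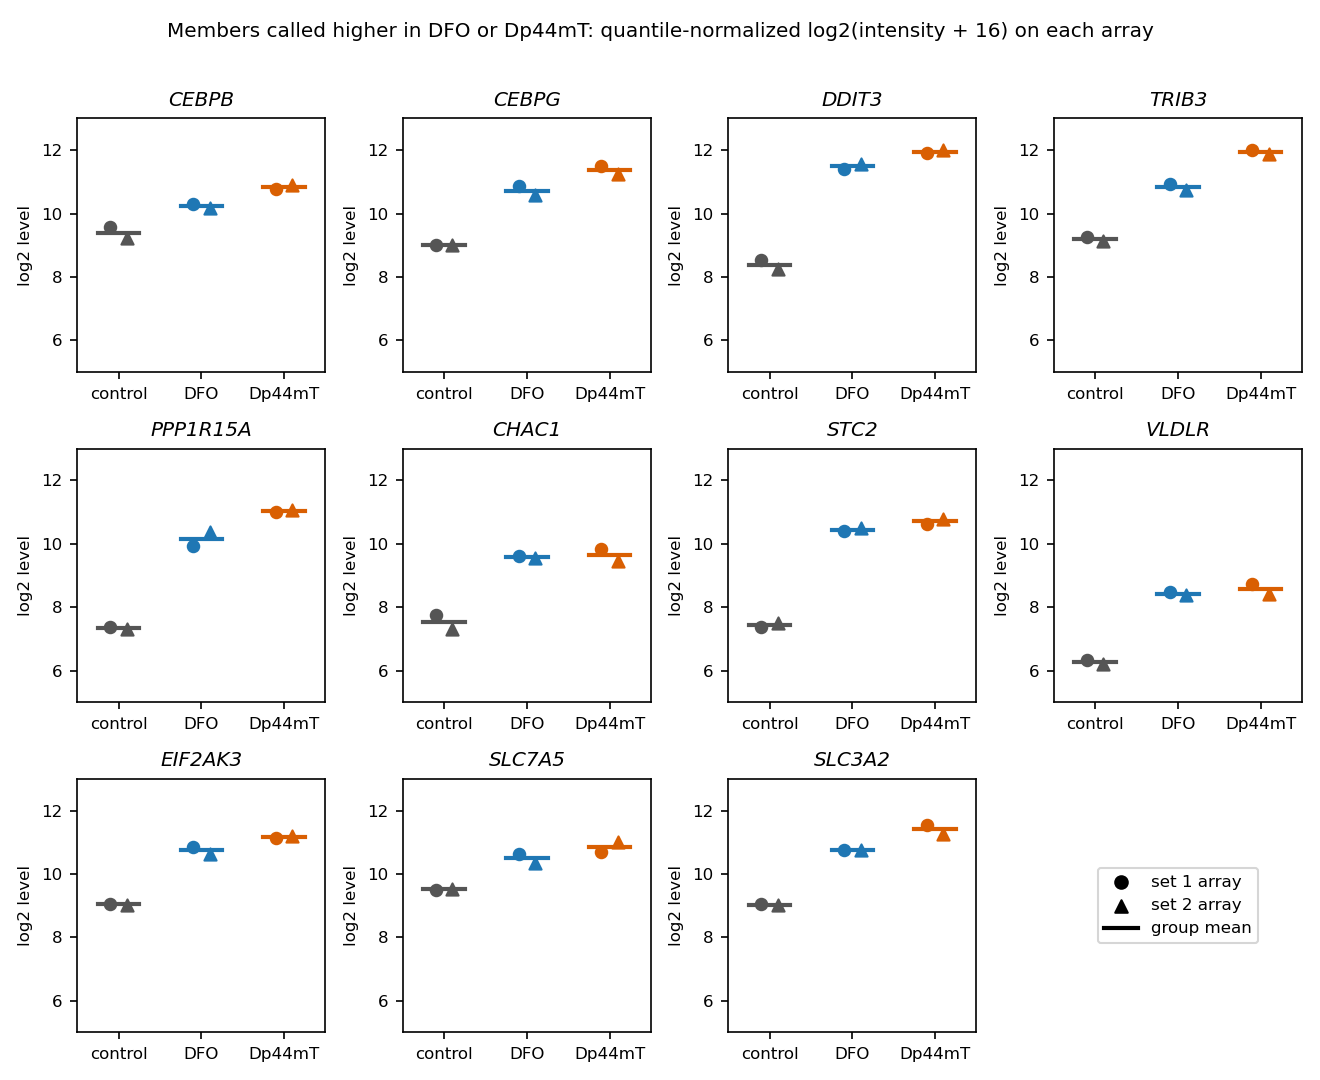
Quantile-normalized log2(intensity + 16) of the 11 genes called higher in DFO or Dp44mT, on each array (circles set 1, triangles set 2; bars are group means of 2 arrays). In all 11 both arrays of each chelator lay above both control arrays, and DDIT3 went from 8.53 and 8.24 in control to at least 11.41 in either chelator.

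Among the transcription factors, 2 of 7 rose in DFO and 3 of 7 in Dp44mT, with median changes of 0.32 and 0.66 that were -0.03 and 0.02 on the deposited scale. ATF4 itself read 11.71 and 11.60 on the control arrays, 11.97 and 11.99 in DFO and 12.22 and 12.16 in Dp44mT. On this normalized scale the 3 groups did not overlap and stood in that order, but on the deposited intensities they overlapped, at 3688 and 4428 in control, 5214 and 2931 in DFO and 5599 and 2876 in Dp44mT. The normalized differences were 0.32 (SE 0.16, adjusted p = 0.485) in DFO and 0.53 (SE 0.16, adjusted p = 0.136) in Dp44mT, and neither passed. They turned to -0.05 and -0.01 on the deposited scale.

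DDIT3 encodes CHOP, a C/EBP-family factor that promotes cell death under lasting stress. Its levels were 8.53 and 8.24 in control, 11.41 and 11.56 in DFO and 11.91 and 12.00 in Dp44mT. Both chelators were far above control and the arrays of a group lay close together. DDIT3 rose by 3.10 in DFO (SE 0.19, 8.56-fold, adjusted p = 0.0113) and by 3.57 in Dp44mT (SE 0.19, 11.8-fold, adjusted p = 0.00669). Within set 1 the differences were 2.87 and 3.38, and within set 2 they were 3.32 and 3.75.

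CEBPG encodes a short C/EBP protein that forms dimers with ATF4. Its brightest probe set read 9.00 and 9.01 in control, 10.86 and 10.59 in DFO and 11.50 and 11.25 in Dp44mT, so that the groups did not overlap. CEBPG rose by 1.72 in DFO (SE 0.19, adjusted p = 0.0332) and by 2.37 in Dp44mT (SE 0.19, adjusted p = 0.0119). A less bright probe set of the gene showed less, at 0.27 and 0.66, and did not pass for either chelator. The mean over both probe sets was not called in DFO, so the DFO call of CEBPG rests on 1 probe set.

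CEBPB encodes another C/EBP partner of ATF4. It read 9.57 and 9.22 in control, 10.30 and 10.17 in DFO and 10.78 and 10.89 in Dp44mT. The normalized arrays stood in the order control, DFO, Dp44mT, but on the deposited intensities those of DFO overlapped with control. CEBPB rose by 1.44 in Dp44mT (SE 0.20, adjusted p = 0.0341). In DFO it was 0.84 above control (SE 0.20, adjusted p = 0.177), which did not pass. The call in Dp44mT was lost without the set 2 chelator arrays, with the DFO arrays left out of the fit, with array medians subtracted and on the deposited scale.

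The other 3 factors were not called. ATF5, a close relative of ATF4, was at -0.10 in DFO and -0.35 in Dp44mT. NUPR1, a small stress-induced chromatin protein, lay near the filter limit, between 5.85 and 6.15 on all 6 arrays, with differences of 0.06 and -0.02. JDP2, a repressor of the AP-1 and ATF family, differed by 0.30 and 0.66 at its brightest probe set, where the DFO arrays were far apart, at 7.70 and 8.70. Its other probe set read 7.03 and 7.07 in control, 8.31 and 7.90 in DFO and 8.36 and 8.44 in Dp44mT. That probe set did not overlap with control, at 1.05 in DFO (adjusted p = 0.139) and 1.35 in Dp44mT (adjusted p = 0.0466 in the limma fit over all probe sets).

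All 5 feedback genes and other targets rose under both chelators, with median changes of 2.16 in DFO and 2.74 in Dp44mT. The medians over all genes tested were -0.04 and 0.03. TRIB3, a pseudokinase that binds and restrains ATF4, read 9.27 and 9.13 in control, 10.93 and 10.75 in DFO and 12.01 and 11.87 in Dp44mT. Its normalized groups did not overlap. TRIB3 rose by 1.64 in DFO (SE 0.18, adjusted p = 0.0307) and by 2.74 in Dp44mT (SE 0.18, adjusted p = 0.00669).

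PPP1R15A encodes GADD34, the regulatory subunit that brings protein phosphatase 1 to eIF2 and reverses its phosphorylation. It read 7.37 and 7.31 in control, 9.92 and 10.38 in DFO and 11.00 and 11.06 in Dp44mT. The groups did not overlap, and PPP1R15A had the largest change of the set in Dp44mT. It rose by 2.82 in DFO (SE 0.21, 7.04-fold, adjusted p = 0.0122) and by 3.69 in Dp44mT (SE 0.21, 12.9-fold, adjusted p = 0.00669). Its other probe set gave 2.74 and 3.69. The promoter window above, with TGACGTCA, is that of this gene.

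CHAC1 encodes a glutathione-degrading cyclotransferase. Its levels were 7.76 and 7.30 in control, 9.61 and 9.55 in DFO and 9.82 and 9.45 in Dp44mT. Both chelators were above control but overlapped each other. CHAC1 rose by 2.05 in DFO (SE 0.24, adjusted p = 0.0362) and by 2.10 in Dp44mT (SE 0.24, adjusted p = 0.0242).

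STC2 encodes stanniocalcin 2, a secreted glycoprotein. It read 7.36 and 7.51 in control, 10.41 and 10.48 in DFO and 10.63 and 10.78 in Dp44mT. STC2 rose by 3.01 in DFO (SE 0.17, 8.05-fold, adjusted p = 0.0108) and by 3.27 in Dp44mT (SE 0.17, 9.62-fold, adjusted p = 0.00669). A less bright probe set was also higher, by 1.86 and 1.55, but missed the threshold in the fit over all probe sets (adjusted p = 0.0591 and 0.0531).

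VLDLR encodes the receptor for very low density lipoprotein. It was dim in control, at 6.34 and 6.19, and read 8.46 and 8.39 in DFO and 8.73 and 8.42 in Dp44mT. Each chelator array was above both control arrays. VLDLR rose by 2.16 in DFO (SE 0.19, adjusted p = 0.0189) and by 2.31 in Dp44mT (SE 0.19, adjusted p = 0.0123).

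Of the eIF2 kinases, EIF2AK3 alone passed in this fit, and it was higher. EIF2AK3, which encodes PERK, read 9.06 and 9.03 in control, 10.86 and 10.63 in DFO and 11.14 and 11.20 in Dp44mT. The groups did not overlap. EIF2AK3 rose by 1.70 in DFO (SE 0.17, 3.25-fold, adjusted p = 0.0278) and by 2.12 in Dp44mT (SE 0.17, 4.36-fold, adjusted p = 0.0119). Its second probe set lay below the filter limit, and with the mean of both the call in DFO was lost.

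The other 3 kinases had lower means under both chelators, and none passed. EIF2AK4, which encodes GCN2, read 7.79 and 8.01 in control, 7.26 and 6.13 in DFO and 6.66 and 5.50 in Dp44mT. All 4 chelator arrays were below control, but the arrays of a chelator were more than 1 log2 unit apart. Its differences were -1.20 in DFO (SE 0.53, adjusted p = 0.426) and -1.81 in Dp44mT (SE 0.53, adjusted p = 0.126). By set they were -0.53 and -1.13 in set 1 against -1.87 and -2.50 in set 2. The less bright probe set of EIF2AK4 showed less, at -0.27 in DFO and -0.23 in Dp44mT.

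EIF2AK2, which encodes PKR, was at -0.67 in DFO (adjusted p = 0.355) and -0.49 in Dp44mT (adjusted p = 0.301), and its 3 probe sets all lay below 0 for both chelators. EIF2AK1, which encodes HRI, was at -0.27 (adjusted p = 0.562) and -0.45 (adjusted p = 0.175), with no overlap with control in either. A less bright probe set of EIF2AK1 was at -0.68 and -1.48 (adjusted p = 0.557 and 0.107 in the limma fit over all probe sets). EIF2S1, the alpha subunit that the kinases phosphorylate, was at 0.12 and 0.17, with intervals of -0.34 to 0.58 and -0.29 to 0.63. The median over the 5 genes of this class was -0.27 in DFO and -0.45 in Dp44mT.

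**Figure D2:**
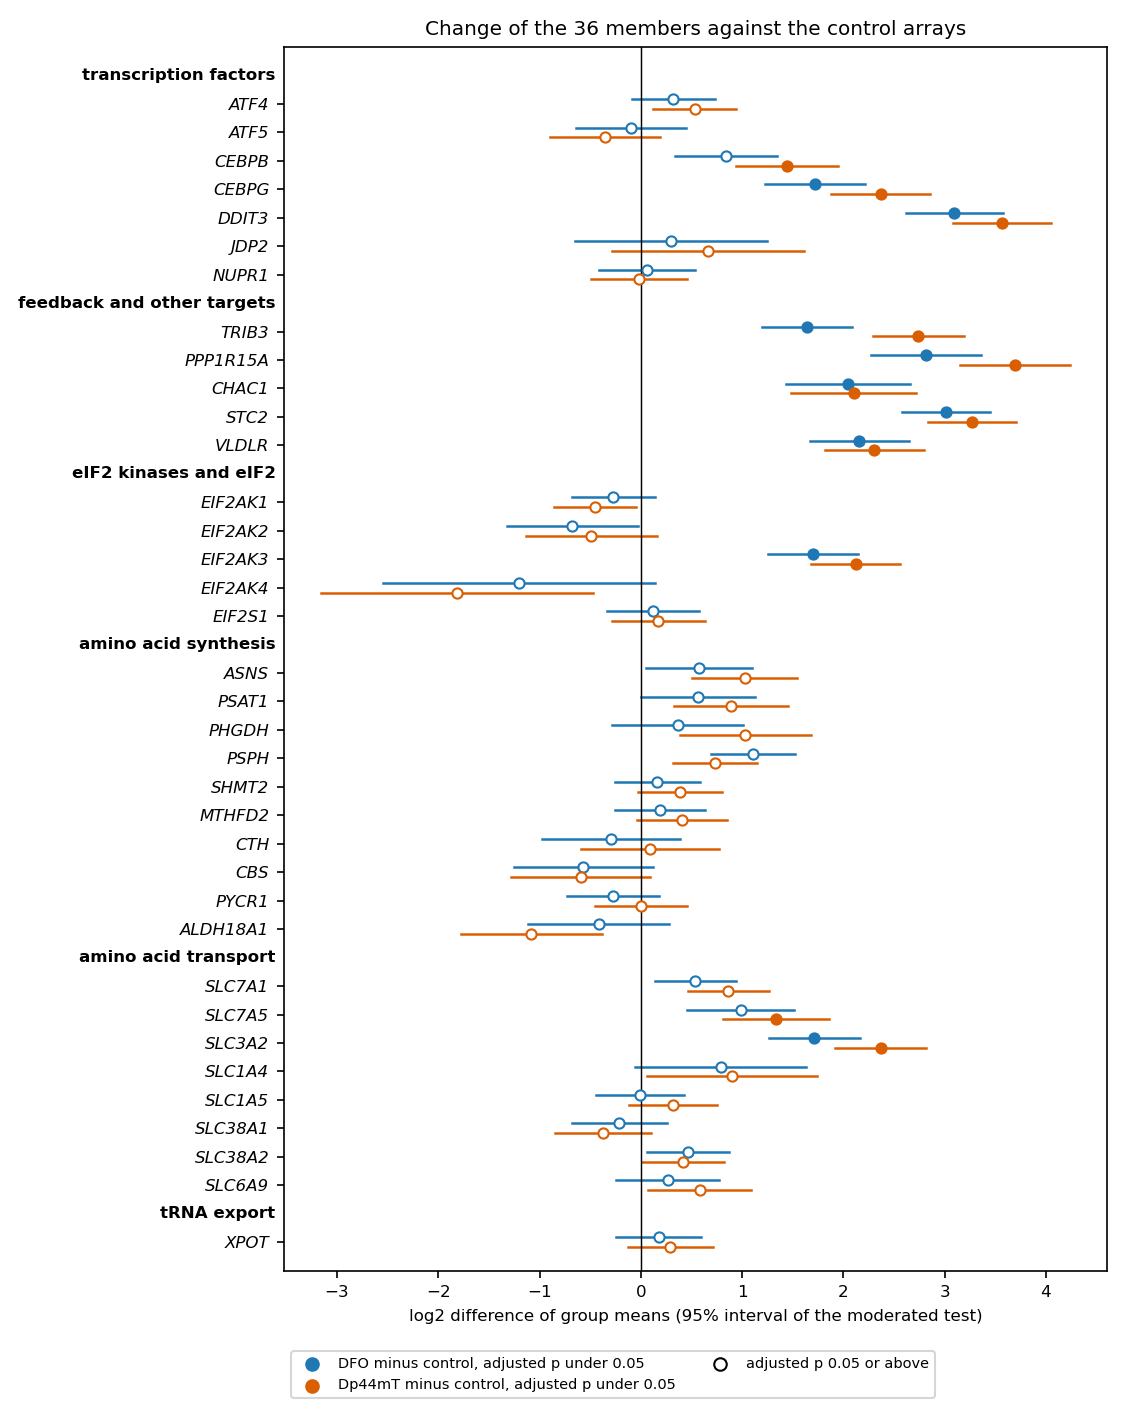
Log2 difference of each chelator from control for the 36 genes, by class, with the 95% interval of limma's moderated test (2 arrays per group; filled points adjusted p under 0.05). The 5 feedback genes and other targets lie between 1.64 and 3.69, and the 10 enzymes of amino acid synthesis between -1.08 and 1.11 with no filled point.

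None of the 10 measured enzymes of amino acid synthesis was called for either chelator by limma. At an unadjusted p under 0.05 stood ASNS, PSAT1 and PSPH in DFO, and these with PHGDH and ALDH18A1 in Dp44mT. The class had a median of 0.18 in DFO and 0.40 in Dp44mT. On the deposited scale with no scaling these medians turned to -0.21 and -0.21, where all genes tested had medians of -0.33 and -0.50.

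ASNS, asparagine synthetase, read 11.57 and 11.43 in control, 12.26 and 11.89 in DFO and 12.61 and 12.44 in Dp44mT. Its groups stood in the same order as those of ATF4 after normalization and, like them, overlapped on the deposited intensities. The differences were 0.57 (SE 0.21, adjusted p = 0.332) and 1.02 (SE 0.21, adjusted p = 0.0684).

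The serine pathway starts from a glycolytic intermediate through PHGDH, PSAT1 and PSPH. PSPH, the phosphatase of the last step, read 10.18 on both control arrays, 11.35 and 11.23 in DFO and 10.94 and 10.90 in Dp44mT. It was higher under both chelators and was among the 9 of the 36 genes with a higher mean in DFO than in Dp44mT. The differences were 1.11 in DFO (SE 0.16, adjusted p = 0.0616) and 0.73 in Dp44mT (SE 0.16, adjusted p = 0.079), and PSPH passed in DFO with a pseudocount of 32 or with the filter at the median. PSAT1, the aminotransferase, was at 0.56 (adjusted p = 0.374) and 0.89 (adjusted p = 0.097). Its less bright probe set was at 0.87 and 1.40 (adjusted p = 0.249 and 0.0501 in the limma fit over all probe sets). PHGDH, the dehydrogenase of the first step, was at 0.36 (adjusted p = 0.624) and 1.03 (adjusted p = 0.0949).

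Of the mitochondrial folate enzymes, SHMT2, which takes the one-carbon unit from serine, was at 0.16 and 0.39, and MTHFD2, which oxidizes the unit, at 0.19 and 0.41. Both chelators' arrays lay above the control arrays at the brightest probe sets of these genes, with adjusted p of 0.695 or more in DFO and 0.231 or more in Dp44mT. Less bright probe sets differed. Those of SHMT2 were at -0.11 and -0.03 in DFO and at 0.105 and 0.18 in Dp44mT. That of MTHFD2 was at -0.06 in DFO and -0.25 in Dp44mT. The enzymes that make cysteine from homocysteine were not called. CBS was at -0.57 and -0.59 (adjusted p = 0.461 and 0.255), and CTH was at -0.29 and 0.09.

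The proline enzymes were not called either. ALDH18A1, which makes the precursor of proline and ornithine, read 9.73 and 10.03 in control, 9.62 and 9.30 in DFO and 9.09 and 8.51 in Dp44mT. Its arrays stood in the reverse order to those of ASNS. The differences were -0.42 (SE 0.27, adjusted p = 0.602) and -1.08 (SE 0.27, adjusted p = 0.0996), the second being -0.64 in set 1 and -1.52 in set 2. PYCR1, which carries out the last step to proline, was at -0.27 and 0.00.

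Transporters were split, and at the brightest probe sets SLC3A2 and SLC7A5 changed most. SLC3A2 and SLC7A5 encode the heavy and light chains of LAT1, which exchanges glutamine for leucine and other large neutral amino acids. SLC3A2 read 9.05 and 9.02 in control, 10.75 on both DFO arrays, and 11.53 and 11.27 in Dp44mT. The normalized groups did not overlap. SLC3A2 rose by 1.71 in DFO (SE 0.18, adjusted p = 0.0278) and by 2.37 in Dp44mT (SE 0.18, adjusted p = 0.0102).

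SLC7A5 read 9.50 and 9.52 in control, 10.64 and 10.35 in DFO and 10.68 and 11.00 in Dp44mT. All 4 chelator arrays were above control. SLC7A5 rose by 1.33 in Dp44mT (SE 0.21, adjusted p = 0.043), a call that was lost with a pseudocount of 1, with the DFO arrays left out of the fit, with array medians subtracted and on the deposited scale. In DFO it was 0.99 above control (SE 0.21, adjusted p = 0.144), which did not pass.

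SLC7A1, the cationic amino acid carrier, read 10.68 and 10.71 in control, 11.24 on both DFO arrays, and 11.54 and 11.58 in Dp44mT. Its arrays were among the tightest of the set, and the groups did not overlap after normalization, though they did on the deposited intensities. The differences were 0.54 (SE 0.16, adjusted p = 0.255) and 0.86 (SE 0.16, adjusted p = 0.0578), and all 4 of its probe sets above the limit were higher for both chelators. SLC1A4, a carrier of alanine, serine and cysteine, had 5 such probe sets, all higher, and stood at 0.79 (adjusted p = 0.405) and 0.90 (adjusted p = 0.184) at the brightest.

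SLC38A2, the sodium-coupled neutral amino acid transporter SNAT2, was at 0.47 (adjusted p = 0.309) and 0.42 (adjusted p = 0.194), with both chelators' arrays above control. SLC6A9, a glycine transporter with dim signal, was at 0.27 and 0.58. SLC1A5, the glutamine carrier ASCT2, was at -0.01 in DFO and 0.32 in Dp44mT. Among the transporters SLC38A1, SNAT1, had the only means below control in both comparisons, at -0.21 and -0.37, although its probe set next in brightness gave 0.02 and 0.12. Over the 8 transporters the median change was 0.50 in DFO and 0.72 in Dp44mT (0.12 and 0.21 on the deposited scale), with 1 and 2 called.

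XPOT, which exports tRNA from the nucleus, was at 0.18 (adjusted p = 0.701) and 0.29 (adjusted p = 0.333). Its 2 probe sets disagreed in sign, the less bright one being at -0.68 and -1.25, and on the deposited scale the brighter one was at -0.21 and -0.29.

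Set side by side, 8 of the 17 genes grouped as regulators (factors, feedback genes and other targets, kinases and eIF2) rose in DFO and 9 of 17 in Dp44mT. CHAC1, STC2 and VLDLR are in this group as targets and not as regulators. All 5 feedback genes and other targets rose under each chelator. Of the 7 factors 2 rose in DFO and 3 in Dp44mT, and of the 5 kinase and eIF2 genes 1 rose in each. Of the 18 supply genes (synthesis and transport), 1 rose in DFO and 2 in Dp44mT. The median changes were 0.84 and 1.44 for the regulators and 0.31 and 0.50 for the supply genes. The difference between the classes was not tested, and each range was wide, from -1.20 to 3.10 for regulators and from -0.57 to 1.71 for supply genes in DFO. The sign of most supply genes was positive all the same, with means above 0 in 12 of 18 in DFO and 15 of 18 in Dp44mT, against 7842 and 8724 of 16868 genes. On the deposited scale 7 of the 27 uncalled genes changed sign in DFO and 9 of 25 in Dp44mT. Both arrays of the chelator lay above both control arrays in 22 of the 36 genes in DFO and 26 in Dp44mT, where the shares over all genes were 17.1% and 30.3%. On the deposited intensities these counts were 9 and 11. Both lay below in 6 and 7 on the normalized scale, where the shares over all genes were 30% and 33.1%. Among the supply genes, 11 of 18 lay above without overlap in DFO and 13 of 18 in Dp44mT, which were 1 and 2 on the deposited intensities.

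**Figure D3:**
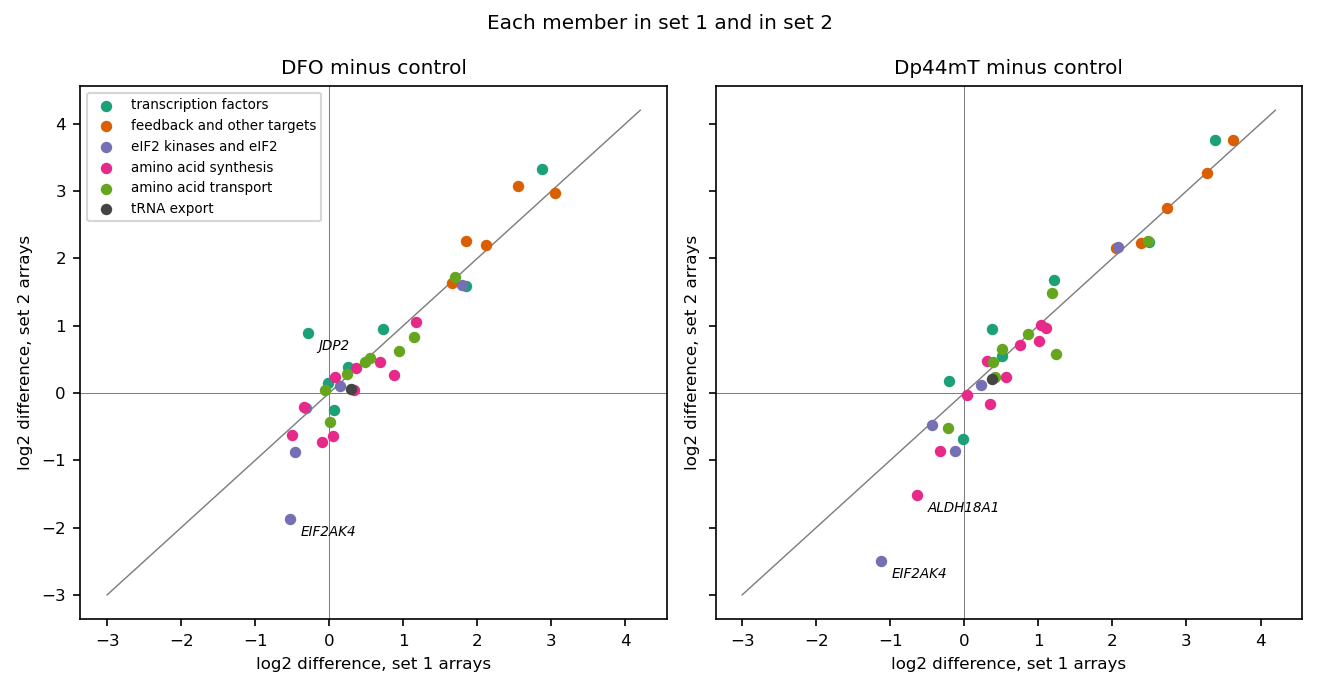
Log2 difference from the control array of the same set number, set 1 across and set 2 up, for the 36 genes in DFO (left) and Dp44mT (right), coloured by class, with the line of equality; names mark genes whose sets differ by over 0.75. EIF2AK4 lies farthest below the line, at -0.53 and -1.87 in DFO and at -1.13 and -2.50 in Dp44mT.

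The differences of the 11 called genes by set are given as values only, since with 2 arrays per group a gene that passes has arrays close to each other for the size of its change. Similar values in both sets therefore come with the call and are no separate evidence. The gap between sets was widest for PPP1R15A in DFO, at 2.56 and 3.08, and for CEBPB in Dp44mT, at 1.21 and 1.67. Those of DDIT3 are given above. In DFO, TRIB3 was at 1.66 in set 1 and 1.63 in set 2, STC2 at 3.05 and 2.97, and SLC3A2 at 1.70 and 1.73. CEBPG was at 1.85 and 1.59 there, CHAC1 at 1.845 and 2.25, VLDLR at 2.12 and 2.20, and EIF2AK3 at 1.80 and 1.605. In Dp44mT, TRIB3 was at 2.74 in set 1 and 2.75 in set 2, STC2 at 3.27 and 3.26, and EIF2AK3 at 2.07 and 2.17. CEBPG was at 2.495 and 2.24 in that comparison, CHAC1 at 2.05 and 2.15, and VLDLR at 2.39 and 2.22. SLC7A5 was at 1.19 and 1.48, SLC3A2 at 2.49 and 2.255, and PPP1R15A at 3.63 and 3.76. The set numbers are used here only to lay out the arrays, since no label says what a set is.

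**Figure D4:**
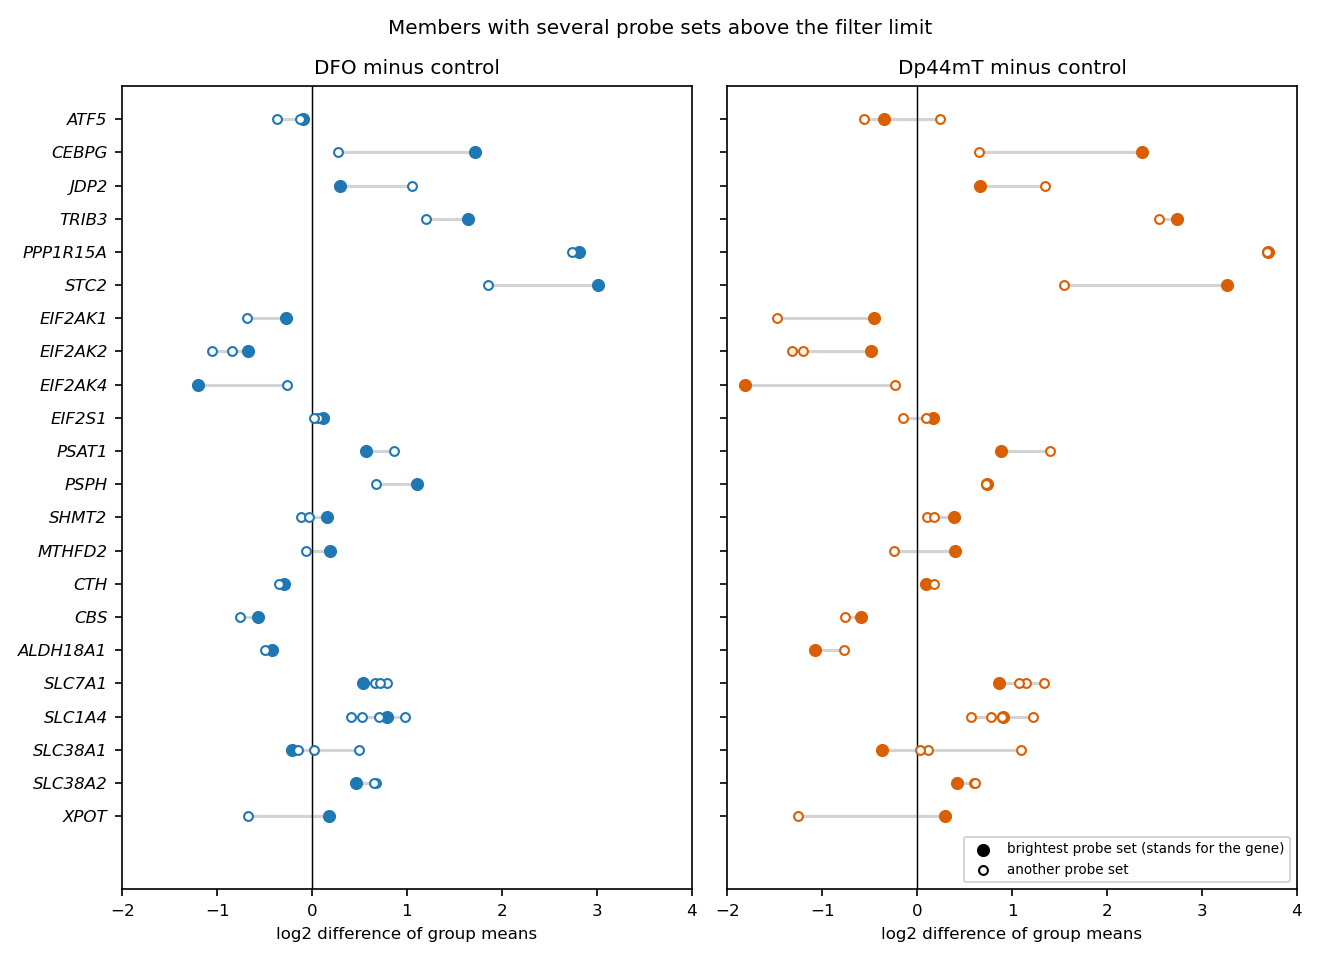
Log2 difference from control of every probe set above the filter limit, for the 22 genes with more than 1 (filled, the brightest, which stands for the gene; open, the others; DFO left, Dp44mT right). The other probe sets of called genes are all on the same side of 0. XPOT, MTHFD2 and, in DFO, SHMT2 are among the genes with probe sets on both sides.

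Of the 76 probe sets of the set, 70 lay above the filter limit, and 34 of these were not the brightest of their gene. Their sign was that of the brightest in 28 of 34 in DFO and 27 of 34 in Dp44mT. The other probe sets of called genes, 4 in number, had the sign of the brightest in both. Probe sets of 1 gene can read different transcript ends and share probes with relatives, which the suffixes of the array's names mark, and signal levels of different probe sets are not compared here.

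Dp44mT at 25 µM was compared with DFO at 250 µM at the same time, so that dose and compound differ together. None of the 36 genes was called between them by limma, nor was any of the 16868 genes (0%), where 718 genes had an unadjusted p under 0.05. The smallest adjusted p among the 36 was 0.922. An unadjusted p under 0.05 was seen for 6 of the 36, each with the higher mean in Dp44mT: TRIB3, PPP1R15A, SLC3A2, CEBPG, CEBPB and PHGDH. On the deposited scale with no scaling 0 of the 36 had such a p in limma, and with array medians subtracted 1. TRIB3 had the largest difference, 1.1, with an interval of 0.65 to 1.55. PPP1R15A was 0.88 higher (0.34 to 1.42) and SLC3A2 0.66 higher (0.21 to 1.1). A missed threshold does not show that the chelators act alike, as these intervals, all on the quantile-normalized scale, reach well above 0.

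For CHAC1 and VLDLR the chelators' arrays overlapped, with differences of 0.05 (-0.56 to 0.67) and 0.15 (-0.34 to 0.63). The mean was higher in Dp44mT for 27 of the 36 genes and for 8993 of all 16868. Both Dp44mT arrays lay above both DFO arrays in 20 of the 36 and below in 6 on the normalized scale (0 and 0 on the deposited intensities), where the shares over all genes were 14.4% and 13.1%. On the deposited scale with no scaling, 10 of the 36 differences changed sign.

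**Figure D5:**
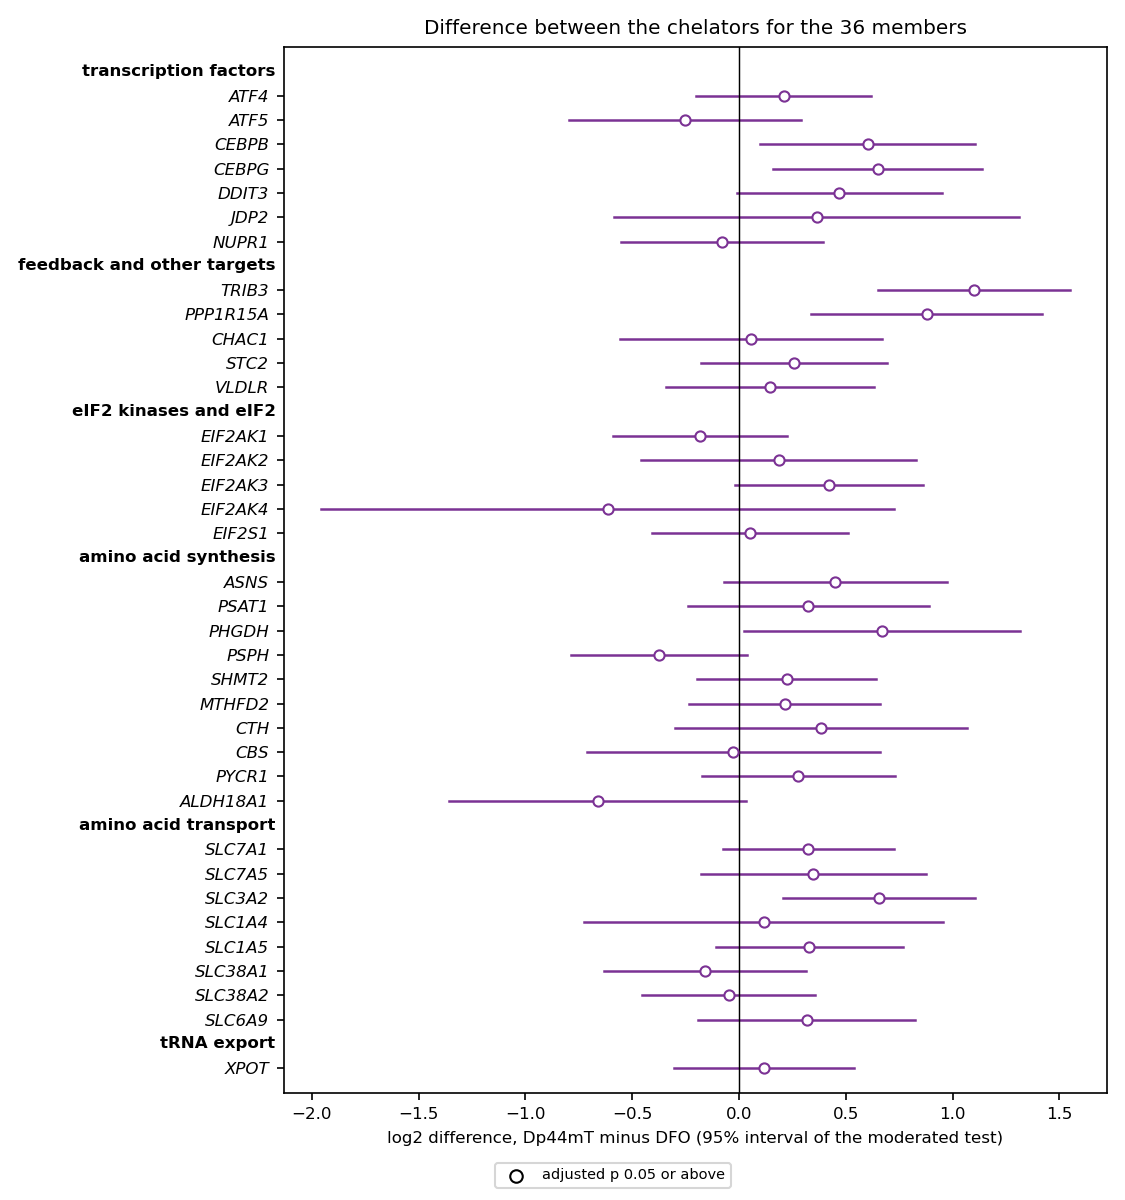
Log2 difference of Dp44mT from DFO for the 36 genes, by class, with the 95% interval of limma's moderated test (2 arrays per group, doses of 25 and 250 µM). No difference had an adjusted p under 0.05, and TRIB3 at 1.1 lies farthest from 0.

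Other genes of the pathway were read from lists drawn up beside the 37. Among 19 genes of eIF2, its exchange factor eIF2B and their control, 0 passed in DFO and 1 in Dp44mT, DNAJC3. DNAJC3 encodes p58IPK, an inhibitor of eIF2 kinases that resides in the endoplasmic reticulum, and rose by 1.22 (adjusted p = 0.0483). Of 11 further ATF4 targets above the filter limit, 5 rose under each chelator and none fell, while FGF21 lay below it. ATF3, a stress-induced repressor, rose by 4.40 in DFO (adjusted p = 0.0108) and by 4.62 in Dp44mT (adjusted p = 0.00669). DDIT4, an inhibitor of mTORC1, rose by 3.23 and 3.28, SESN2, a leucine-sensing inhibitor of the same kinase complex, by 2.42 and 2.92, and the secreted factor GDF15 by 2.69 and 2.34. The fifth, VEGFA, named to complete the count, rose by 2.49 and 2.33, and it is also a target of hypoxia-inducible factors, as DDIT4 is. SLC7A11, the cystine carrier, was not called, at 0.31 and 0.78 (adjusted p = 0.592 and 0.0951). The other uncalled targets were NARS1 at 0.04 and 0.14, WARS1 at -0.15 and 0.07, and EIF4EBP1 at -0.05 and 0.27. With them were KLHL24 at 0.01 and -0.04 and AKNA at -0.54 and -0.19.

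Of 27 further genes of amino acid supply above the limit, 0 were called by limma for either chelator. The medians were -0.07 in DFO and -0.18 in Dp44mT. In DFO the smallest p-values belonged to SLC6A6, the taurine transporter, at 1.00 (adjusted p = 0.163), and to PYCR3, a proline enzyme, at -0.95 (adjusted p = 0.187). In Dp44mT they belonged to PYCR3, at -1.36 (adjusted p = 0.0509), and to GOT1, cytosolic aspartate aminotransferase, at 0.98 (adjusted p = 0.0537).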

How the data were processed

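Linear probe set intensities were deposited, made by the authors in Affymetrix Expression Console 1.1 as the submitters' processing notes record. Summarization and normalization are not given in the sources used here. From the 54675 probe sets, log2(intensity + 16) was quantile normalized over the 6 arrays. The 41097 probe sets with 1 symbol were kept, the brightest stood for its gene, and genes whose mean lay under percentile 25 of all probe sets (5.55) were dropped. Groups were compared with limma 3.58.1 in R 4.3.3, all 3 groups in 1 fit, two-sided, with Benjamini-Hochberg adjustment over 16868 genes and a threshold of 0.05. The fit was tested on simulated data. With 2 arrays per group, 95% intervals had a median half-width of 0.64. An exact permutation test cannot go below p = 0.333 and was not used. The members and lists were chosen with earlier results of these data known. All members are named. Of the other lists, up to 4 called genes are named by size or, with none called, the 2 of smallest p. Among the further ATF4 targets, VEGFA and the uncalled genes are named beyond this rule. Alternatives covered scaling, pseudocount, filter, probe sets, arrays left out and a replicate block.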

Additional observations from a re-analysis of the deposited data

How the results depend on the processing

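As reported, limma called 9 of the 36 genes in DFO (185 of all genes) and 11 in Dp44mT (569). On the deposited scale with no scaling these were 0 (26) and 2 (66), and with array medians subtracted 4 (98) and 7 (303). With only the groups compared in the fit they were 4 (61) and 9 (403, without CEBPB and SLC7A5). Leaving out 1 array at a time gave 0 to 4 members and 0 to 61 genes in DFO, and 0 to 9 members and 0 to 403 genes in Dp44mT. Calls were at 0 wherever an array of the compared groups was left out, with 11 to 14 members at an unadjusted p under 0.05 in DFO and 15 to 20 in Dp44mT. A group of 1 array is then assumed to vary like the others. Without both chelator arrays of set 2, DFO had 0 members (0 genes) and Dp44mT 11 (844). Same-numbered arrays deviated together between the chelators (0.843) but not with control (-0.254 and -0.353). These correlations cannot settle whether a set number pairs a chelator array with a control array, since no label says what a set is. With the set number as a replicate block, 9 members (169 genes) passed in DFO and 13 (909) in Dp44mT, ASNS and PHGDH being added. With the control numbers crossed, chosen after seeing the data, the block gave 10 (511) and 18 (2758). Dp44mT against DFO gave 0 under all of these in limma, with 100 to 2256 genes at an unadjusted p under 0.05. The cause of the losses was not tested. Fewer arrays leave fewer degrees of freedom, while the fits with other scaling used all 6 arrays. No called member changed sign under these alternatives. Precision is limited by 2 arrays per group.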
